A study of Mus musculus with 18 samples.

Results

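The genes described here are Myc and 37 genes of ribosome biogenesis, chosen by symbol from a fixed list of 38 and looked up in a table of 45706 genes. All 38 were found, each under 1 identifier, and all 38 were among the 11308 genes that passed a filter on low counts. Their transcripts were measured by sequencing of poly(A) RNA from primary mouse macrophages, differentiated from C57BL/6 bone marrow with 30% L929-conditioned medium, a source of macrophage growth factor. Cells were wild-type (WT) or carried the genotype RelA-TA-KI, by its name a knock-in of RelA, the NF-kB subunit that the series title concerns, and called the knock-in below. After 6 days of culture, cells on day 7 were left unstimulated or were given lipopolysaccharide (LPS, 100 ng/ml), a bacterial cell wall component sensed by the receptor TLR4, or the cytokine TNF (10 ng/ml), for 0.5, 1, 3 or 8 h. Every sample carried an age label of 12 days. The labels state neither what the knock-in changes in RelA nor how many mice or cultures were used. Each of the 9 conditions had 1 library per genotype, so the 18 libraries form 9 pairs and no condition was repeated within a genotype. A p-value therefore measures how evenly an effect appeared over these libraries, not between mice.

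Ribosome biogenesis starts in the nucleolus, where RNA polymerase I transcribes the precursor of the large ribosomal RNAs. Small nucleolar ribonucleoproteins (snoRNPs) then modify this precursor, and the processing factors of the small and the large subunit cleave, fold and assemble it. MYC, a transcription factor that binds DNA with its partner MAX, raises the transcription of many of these genes in growing cells, and in macrophages both growth factor and inflammatory stimuli are known to alter Myc transcription.

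MYC and MAX bind the E-box CACGTG, so the RefSeq promoter windows of the members (build GRCm38.p6) were searched for these letters, which read the same on both strands. A window runs from 250 bases upstream of the gene's start to just past it, 300 bases in all, and 32 of the 38 members had one. Entries for Myc, Rrs1, Npm1, Fbl, Bop1 and Rrp12 were not in the table. The sequences below show where each of the 6 matching members carries CACGTG, set in capitals, and give the strand on which each gene reads.
Utp20 (chr10:88826765-88826790, minus strand, E-box 38 bases past the start): gcggcactaactaCACGTGaggaaaa
Tsr1 (chr11:74898094-74898119, plus strand, 25 bases past the start): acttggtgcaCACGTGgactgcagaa
Pes1 (chr11:3963967-3963992, plus strand, 3 bases past the start): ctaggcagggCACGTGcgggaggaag
Wdr43 (chr17:71616222-71616247, plus strand, 18 bases past the start): cccgggcgaaCACGTGgctgccgcgg
Utp18 (chr11:93885767-93885826, minus strand, 20 bases before the start): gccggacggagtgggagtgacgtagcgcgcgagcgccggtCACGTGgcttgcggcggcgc
Nop2 (chr6:125131796-125131855, plus strand, 60 bases before the start): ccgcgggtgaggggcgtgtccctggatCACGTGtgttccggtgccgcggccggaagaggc

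In the 250 upstream bases, 2 of the 32 members (6.2%) held CACGTG, against 6.9% of 27025 genes with a window. Over the whole 300 bases it was 6 of 32 (18.8%) against 8.1%. The 6 matching genes did not respond alike: at 8 h of LPS, Utp20 and Tsr1 were among the members with the largest falls, and Wdr43 was the member that rose. A match of letters is a description of the sequence and was not tested as a binding site.

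Library totals ran from 4663650 to 6721917 counts. Levels are given as CPM, counts scaled to a common library size with edgeR's TMM factors, which set the bulk of genes to no change, and adjusted p-values are from edgeR's quasi-likelihood test with Benjamini-Hochberg adjustment over 11308 genes at a threshold of 0.05. That scaling matters at late times: with library totals instead, the median log2 change of all genes moved to -0.55 at 3 h and -0.99 at 8 h of LPS, and to -0.13 and -0.25 at 3 and 8 h of TNF. The share of called genes that were higher then fell from 52.2% to 17.3% (LPS 3 h), 50.0% to 18.5% (LPS 8 h), 56.4% to 31.8% (TNF 3 h), 53.6% to 24.8% (TNF 8 h) and 62.1% to 38.8% (LPS 1 h), so changes below are relative to the typical gene. The macrophage markers (Adgre1, Csf1r, Cd68 and 8 others) summed to between 11752 and 17801 CPM in every library, and lymphocyte markers to at most 4.56 CPM. The sum hides macrophage markers that moved apart. At 8 h of LPS 6 of the 11 were called higher and 3 lower (33.8% and 33.9% of all genes), with log2 changes from -2.016 to 5.114. In these bulk samples fewer cells and less RNA per cell cannot be told apart.

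Myc, the transcription factor of the list, rose early and fell late after LPS. In WT cells it stood at 45.8 CPM unstimulated and at 116, 67.2, 7.88 and 31.0 CPM after 0.5, 1, 3 and 8 h of LPS. The knock-in cells followed the same course, with 48.2 CPM unstimulated and 112, 76.7, 7.09 and 23.6 CPM. At every LPS time both libraries lay on the same side of both unstimulated libraries. Relative to unstimulated cells, Myc was 2.42-fold higher at 0.5 h (log2 1.27, SE 0.22, adjusted p = 0.0133), and its 1 h change of 0.61 (SE 0.22) did not pass the test (adjusted p = 0.162). At 3 h it was at 15.98% of the unstimulated level (log2 -2.65, SE 0.30, adjusted p = 1.72e-05), and at 8 h at 58.0% (log2 -0.79, SE 0.26, adjusted p = 0.0168). The fall between 1 and 3 h came to -3.25 on the log2 scale (adjusted p = 3.5e-06) and was followed by a rise of 1.86 from 3 to 8 h (adjusted p = 0.000623). The call at 0.5 h was lost without either unstimulated library or the WT library of that time (log2 1.36 without WT unstimulated, 1.20 without knock-in unstimulated, 1.11 without WT LPS 0.5 h, adjusted p from 0.143 to 0.24). The call at 8 h was lost without WT unstimulated (-0.70, adjusted p = 0.0821) or knock-in LPS 8 h (-0.51, adjusted p = 0.19).

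After TNF, Myc in WT cells went from 45.8 CPM to 71.5, 20.0, 21.8 and 25.0 CPM at the 4 times. Knock-in cells had 75.6, 31.5, 44.0 and 33.3 CPM. Both genotypes were above their unstimulated level at 0.5 h and below it at 1, 3 and 8 h. Of these 4 changes (log2 0.64, -0.89, -0.56 and -0.70) the one at 8 h passed the test (SE 0.24, adjusted p = 0.0422), and that call was lost on leaving out any of 9 libraries: WT or knock-in unstimulated, LPS 1 h, TNF 0.5 h or TNF 8 h, or WT LPS 3 h (log2 -0.81 to -0.60, adjusted p from 0.0502 to 0.208). Compared at matched times, Myc was 2.83-fold higher after LPS than after TNF at 1 h (log2 1.5, SE 0.24, adjusted p = 0.00781) and at 23.6% of the TNF level at 3 h (log2 -2.08, SE 0.31, adjusted p = 0.0003). No difference passed the test at 0.5 h (0.63, adjusted p = 1.0) or 8 h (-0.08, adjusted p = 0.813). The 1 h difference missed the threshold without WT LPS 1 h (1.48, adjusted p = 0.0683), WT TNF 1 h (1.27, adjusted p = 0.169) or knock-in LPS 1 h (1.52, adjusted p = 0.053).

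**Figure D1:**
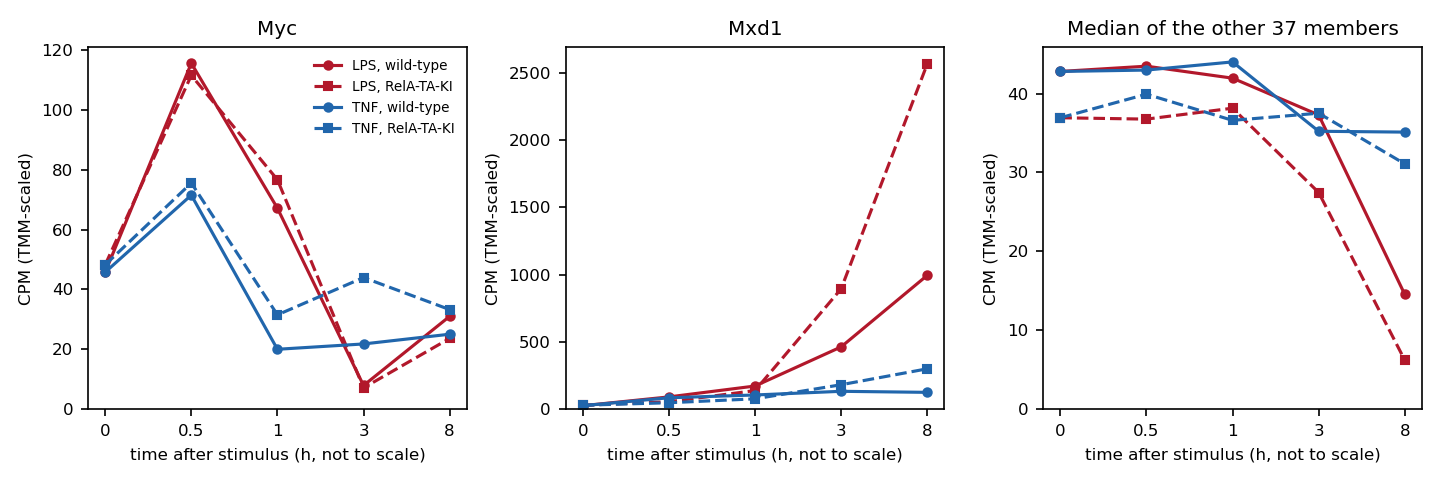
Level of Myc, of Mxd1 (which encodes a competitor of MYC for MAX) and the median level of the other 37 members in CPM on the y axis, against time after the stimulus in h (x axis, categories not to scale), 1 point per library. LPS is red and TNF blue, wild-type solid with circles and the knock-in dashed with squares; Myc peaks at 0.5 h and is lowest at 3 h of LPS, Mxd1 rises to 994 and 2566 CPM at 8 h of LPS, and the members' median drops between 3 and 8 h of LPS.

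Unlike Myc, the ribosome biogenesis genes had hardly moved by 1 h of LPS, as was true of the typical gene. Most of the members had fallen by 8 h. At 0.5 h of LPS, Myc was the 1 member called higher and 0 of 38 were called lower. Of all genes 0.875% were called higher then and 5 of the 11308 lower. At 1 h 1 member was called higher, Rrs1, where 4.25% of all genes were. At that time 0 members were called lower, against 293 of the 11308 genes, and the median log2 change was 0.02 over the members and -0.002 over all genes. At 3 h 14 of 38 were called lower and 2 higher (22.7% and 24.8% of all genes), with a median log2 change of -0.35 over the members and -0.02 over all genes. At 8 h 33 of 38 were called lower and 1 higher, where 33.9% of all genes were called lower and 33.8% higher. The median member then stood at 29.5% of its unstimulated level (log2 -1.76, all genes -0.04). Of the 37 members other than Myc, 29 were at least 2-fold lower at 8 h, 15 at least 4-fold and 8 at least 8-fold, sizes reached by 22.7%, 9.22% and 3.82% of all genes.

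Summed over the 37 genes, the level in WT cells went from 2487 CPM unstimulated to 2406, 2557, 2185 and 1148 CPM over the LPS times. The knock-in sums were 2223 CPM unstimulated and 2152, 2378, 1960 and 803 CPM. In both genotypes the sum changed little through 1 h and was lowest at 8 h. The sum leans on 1 gene: Ncl alone held 687 of the 2487 CPM in unstimulated WT cells and 324 of the 803 CPM in knock-in cells at 8 h. Between 1 and 3 h of LPS, 14 members fell and 2 rose (17.9% and 19.9% of all genes), and between 3 and 8 h 34 fell and 1, Myc, rose (24.7% and 26.6%). The count of 14 between 1 and 3 h became 22 without either of the LPS 8 h libraries. Tested over the 4 LPS times together, 33 members were called with their largest change downward and 3 upward (36.4% and 35.8% of all genes), and Fbl and Ddx10 were not called. Proliferation markers moved with this fall: 13 of 15 were called lower at 8 h, against 33.9% of all genes. Their summed level went from 2193 to 519 CPM in WT and from 2044 to 573 CPM in knock-in cells, with a part in the result that was not tested.

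**Figure D2:**
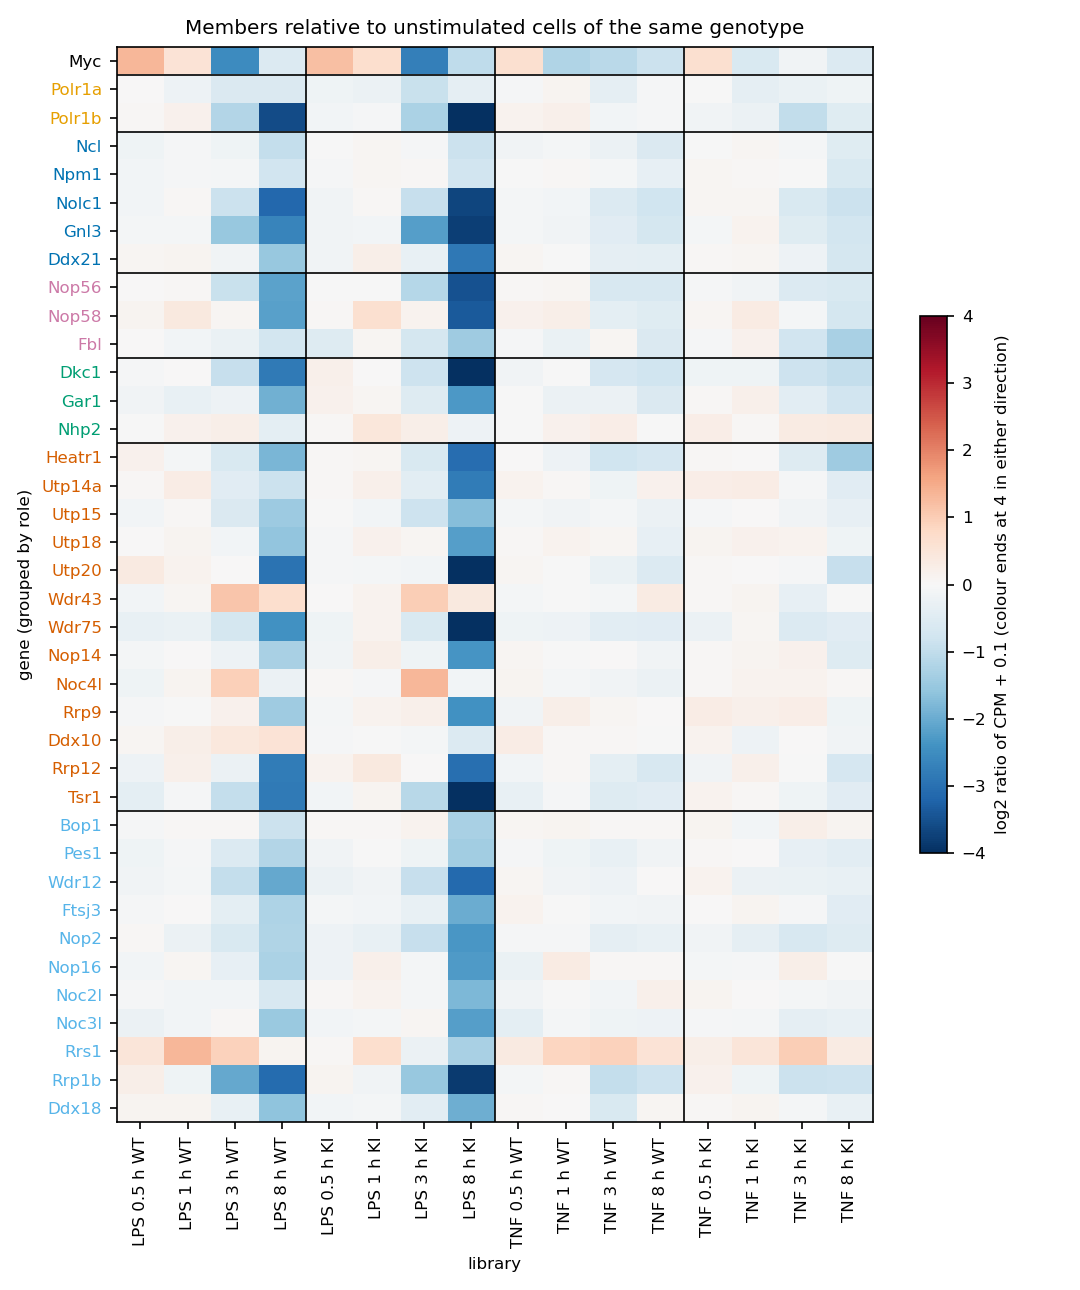
Change of each of the 38 members (y axis, gene symbols coloured and separated by role) in each stimulated library (x axis) against unstimulated cells of the same genotype, as the log2 ratio of CPM + 0.1, with blue for lower, red for higher and the scale ending at 4 in either direction. The LPS 8 h columns of both genotypes are blue for nearly all genes, while Wdr43, Noc4l and Rrs1 show red at 3 h or earlier.

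Polr1a and Polr1b encode the 2 largest subunits of RNA polymerase I, and they parted at 8 h of LPS. Polr1b had 20.4, 21.1, 22.8, 8.95 and 1.61 CPM in WT cells (unstimulated, then the 4 LPS times) and 21.7, 20.2, 21.1, 8.92 and 0.295 CPM in knock-in cells. It was flat to 1 h, and the 8 h libraries were the lowest of all 18. Those libraries held 5 and 1 counts, against 165 and 121 unstimulated, so that Polr1b stood at 7.91% of its unstimulated level in WT (95% exact interval for counting error alone 2.54% to 18.8%) and at 1.36% in knock-in cells (0.0342% to 7.73%). Its fitted change of -4.47 (SE 0.38, adjusted p = 1.93e-07) had the largest size among the members. It had already fallen by 1.23 at 3 h (SE 0.22, adjusted p = 0.000428). Polr1a, the catalytic subunit, had 45.0 and 45.5 CPM unstimulated, 29.8 and 24.7 CPM at 3 h and 30.4 and 35.7 CPM at 8 h. Its falls were smaller, -0.73 at 3 h (SE 0.14, adjusted p = 0.000827) and -0.45 at 8 h (SE 0.14, adjusted p = 0.0137).

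All 5 nucleolar multifunctional genes fell at 8 h of LPS (33.9% of all genes were called lower), by sizes that differed widely. Nolc1, a chaperone of snoRNPs in the nucleolus and Cajal bodies, had 100.2, 92.5, 102, 54.8 and 11.3 CPM in WT and 81.0, 74.2, 84.5, 43.0 and 6.20 CPM in knock-in cells. Both genotypes were lower at 3 h and lower again at 8 h, with fitted changes of -0.89 (SE 0.11, adjusted p = 1.73e-05) and -3.38 (SE 0.14, adjusted p = 2.44e-10). Gnl3 (nucleostemin), a nucleolar GTPase, fell by 1.81 at 3 h (adjusted p = 5.07e-06) and 3.11 at 8 h (adjusted p = 7.87e-08). Ddx21, a nucleolar RNA helicase, fell by 2.07 at 8 h (adjusted p = 3.1e-05) with no call at 3 h. The transcripts of Ncl and Npm1, which encode nucleolar proteins with many partners, had smaller changes. Ncl (nucleolin) went from 687 and 590 CPM to 609 and 574 CPM at 3 h and 356 and 324 CPM at 8 h (log2 -0.91 at 8 h, SE 0.08, adjusted p = 1.49e-07). Npm1 (nucleophosmin) went from 137 and 119 CPM to 81.1 and 69.7 CPM at 8 h (log2 -0.76, SE 0.10, adjusted p = 1.56e-05). Ncl and Npm1, named after their values were seen, also had the highest unstimulated levels per length of the 38, 62.7 and 47.9 CPM per kb of exon, followed by Ddx21 (38.9) and Nhp2 (38.1). The lowest were Wdr12 (2.16), Rrp1b (2.44) and Polr1b (3.63).

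Transcripts of the snoRNP core proteins also fell at 8 h, apart from Nhp2. Nop56, a scaffold of the box C/D snoRNPs that guide ribose methylation, had 34.8, 35.02, 35.9, 18.5 and 7.75 CPM in WT and 34.1, 33.4, 34.0, 15.6 and 2.95 CPM in knock-in cells. It changed at 3 h (log2 -1.01, SE 0.17, adjusted p = 0.00024) and at 8 h (log2 -2.70, SE 0.22, adjusted p = 1.3e-07), and the unstimulated and 8 h libraries did not overlap. Its partner Nop58 had 63.6 and 55.6 CPM unstimulated, 84.3 and 87.6 CPM at 1 h and 13.9 and 5.31 CPM at 8 h. Its 1 h value of 0.53 did not pass the test (adjusted p = 0.0722), and its 8 h fall was -2.66 (adjusted p = 1.95e-07). Fbl (fibrillarin), the methyltransferase of these particles, was low in every library (2.36 to 7.28 CPM, 8 to 48 counts) and was lower at 8 h (log2 -1.06, SE 0.37, adjusted p = 0.0216). Among the box H/ACA proteins, which guide pseudouridylation, the pseudouridine synthase Dkc1 (dyskerin) had 23.5, 22.9, 23.9, 12.4 and 3.23 CPM in WT. The knock-in libraries had 20.1, 23.0, 20.3, 11.2 and 1.18 CPM. Dkc1 thus fell in 2 steps, by 0.88 at 3 h (SE 0.16, adjusted p = 0.000499) and by 3.32 at 8 h (SE 0.24, adjusted p = 4.46e-08), where its counts were 10 and 4. Gar1 fell by 2.15 at 8 h (adjusted p = 1.94e-05).

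Of the 13 small subunit processing genes, 10 fell at 8 h, 1 rose and 2 were not called, where 33.9% of all genes were called lower and 33.8% higher. Utp20, a component of the small subunit processome that first assembles on the precursor, had 77.4, 99.9, 85.9, 77.6 and 10.0 CPM in WT and 71.2, 68.3, 67.9, 65.7 and 2.95 CPM in knock-in cells. It had not moved by 3 h (log2 -0.06) and was the member with the second largest fall at 8 h (log2 -3.55, SE 0.27, adjusted p = 1.31e-07). Tsr1, a factor of late small subunit maturation, had 44.7, 33.8, 43.1, 23.2 and 6.14 CPM in WT and 35.3, 33.0, 37.9, 16.5 and 2.07 CPM in knock-in cells. Tsr1 differed from Utp20 in having fallen at 3 h as well (log2 -1.01, SE 0.18, adjusted p = 0.000407, then -3.31 at 8 h, SE 0.25, adjusted p = 7.02e-08). Tsr1 shares 32.3% of its exon bases with Srr on the other strand, and no source at hand states the strand setting of the counting, so its level is less certain. The same holds for Noc2l (20.9% with Samd11) and Utp14a (11.4% with a gene model). Utp15 (-0.69) and Wdr75 (-0.66) were the other members of this role called lower at 3 h. At 8 h the changes of Wdr75 (-3.02), Rrp12 (-2.93), Heatr1 (-2.32), Rrp9 (-1.87), Utp18 (-1.85), Nop14 (-1.75), Utp15 (-1.58) and Utp14a (-1.54) were called.

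Among the 11 large subunit processing genes 10 fell at 8 h, all but Rrs1, against 33.9% of all genes called lower. Rrp1b, a nucleolar processing factor, had 19.7, 22.9, 17.3, 4.69 and 2.26 CPM in WT and 17.9, 19.4, 16.4, 6.18 and 1.18 CPM in knock-in cells. Its fall came early within this role, -1.79 at 3 h (SE 0.19, adjusted p = 4.98e-06) and -3.45 at 8 h (SE 0.27, adjusted p = 7.38e-08). Wdr12, which forms the PeBoW complex with Pes1 and Bop1, had 28.1, 25.2, 26.3, 14.5 and 6.78 CPM in WT and 23.7, 20.2, 21.5, 12.4 and 2.66 CPM in knock-in cells. The 3 genes of that complex did not fall to the same degree. Wdr12 changed by -0.94 at 3 h (SE 0.16, adjusted p = 0.000255) and -2.47 at 8 h (SE 0.21, adjusted p = 1.65e-07). Pes1 changed by -0.35 (adjusted p = 0.0372) and -1.28 (adjusted p = 2.63e-06), and Bop1 by 0.09, not called, and -1.06 (adjusted p = 1.48e-05). The remaining 8 h log2 changes were -1.80 for Noc3l, -1.78 for Ddx18, -1.69 for Nop16, -1.68 for Nop2, the rRNA cytosine methyltransferase, -1.56 for Ftsj3 and -1.12 for Noc2l, all called.

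Members that went against the rest were picked out after their values were seen. Wdr43, a small subunit processome factor, had 60.2, 55.5, 64.2, 129 and 95.6 CPM in WT and 56.3, 56.5, 62.2, 113 and 73.5 CPM in knock-in cells, so that both 3 h libraries were the highest of their genotype. It was 2.07-fold higher at 3 h (log2 1.05, SE 0.12, adjusted p = 1.07e-05) and 1.45-fold higher at 8 h (log2 0.53, SE 0.13, adjusted p = 0.00199). The 8 h direction turned with library totals (log2 -0.42). Under that scaling all 38 members were called lower at 8 h, as were 7657 of the 11308 genes. Noc4l, another small subunit factor, had 20.7, 18.3, 22.1, 40.5 and 17.4 CPM in WT and 17.9, 18.5, 17.4, 44.8 and 16.5 CPM in knock-in cells. It was high in the 3 h pair alone of the LPS course (log2 1.14, SE 0.13, adjusted p = 1.07e-05) and back within reach of the unstimulated pair at 8 h (log2 -0.19, SE 0.16, adjusted p = 0.298). Ddx10, an RNA helicase, had 30.8 CPM unstimulated and 44.6 CPM at 8 h in WT, against 34.2 and 23.6 CPM in knock-in cells. The genotypes went opposite ways, and its fitted change was 0.06 (SE 0.20, adjusted p = 0.812).

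Rrs1, an assembly factor of the 5S particle of the large subunit, was the member that rose at 1 h of LPS. In WT cells it had 33.2 CPM unstimulated and 46.2, 84.3, 62.4 and 35.5 CPM after LPS. In knock-in cells it had 32.3, 33.5, 52.0, 27.5 and 13.0 CPM. The genotypes started level, both peaked at 1 h, and the knock-in libraries were below their unstimulated level at 3 and 8 h while the WT libraries were above it. The fitted 1 h change was 1.04 (SE 0.27, adjusted p = 0.0428), and the 3 h and 8 h values of 0.42 and -0.48 did not pass the test (adjusted p of 0.25 and 0.2). The 1 h call is fragile: it held without WT or knock-in LPS 3 h, LPS 8 h or TNF 3 h and was lost without any of the other 12 libraries (log2 0.78 to 1.26, adjusted p from 0.0599 to 0.365). After TNF, Rrs1 had 43.0, 60.9, 63.2 and 48.8 CPM in WT and 38.1, 45.2, 63.8 and 40.2 CPM in knock-in cells. All 8 TNF libraries were above both unstimulated ones, and the 3 h change of 0.97 passed the test (SE 0.27, adjusted p = 0.0375). That call was lost without any of 11 libraries (log2 0.70 to 1.21, adjusted p from 0.0503 to 0.29). These were WT or knock-in unstimulated, LPS 0.5 h, TNF 0.5 h, TNF 1 h and TNF 8 h, and knock-in TNF 3 h.

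**Figure D3:**
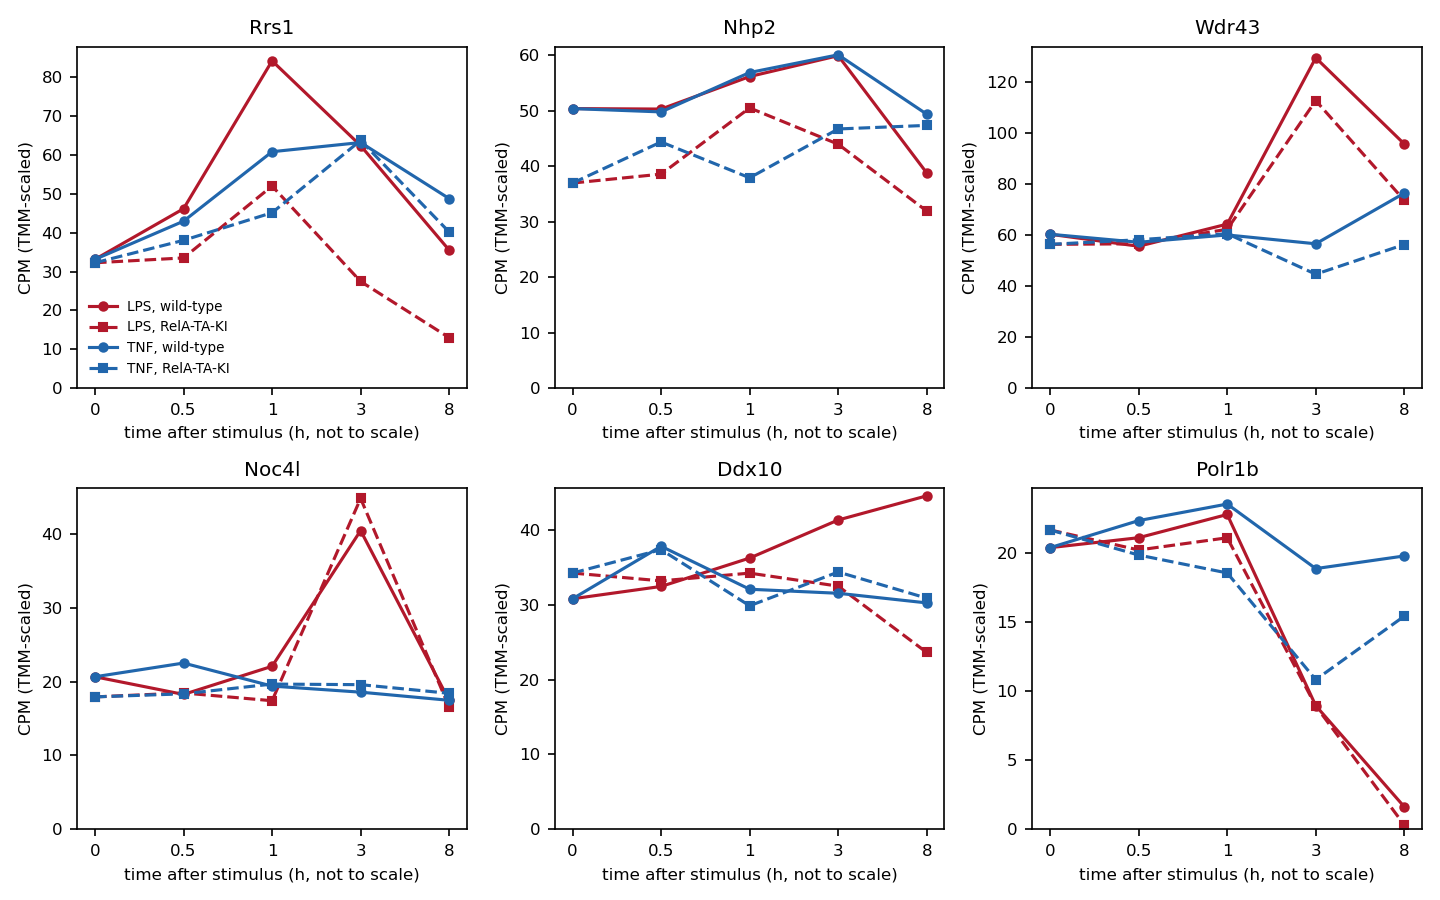
Level in CPM (y axis, from 0) of Rrs1, Nhp2, Wdr43, Noc4l, Ddx10 and Polr1b against time after the stimulus in h (x axis, categories not to scale), 1 point per library, with LPS in red, TNF in blue, wild-type solid and the knock-in dashed. Wdr43 and Noc4l peak at 3 h of LPS in both genotypes, Polr1b falls to 1.61 and 0.295 CPM at 8 h of LPS, and Ddx10 and Rrs1 differ between genotypes after LPS.

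TNF moved fewer members and by less. At 0.5 and 1 h of TNF 0 of 38 were called by edgeR, DESeq2 or limma-voom (0.38% and 1.07% of all genes were called in edgeR). An unadjusted p under 0.05 was reached by 1 and 2 members, and by 388 and 885 of the 11308 genes. At 3 h 4 were called lower, Nolc1 (-0.58), Nop56 (-0.60), Dkc1 (-0.74) and Rrp1b (-0.92), and Rrs1 higher, where 5.86% and 7.6% of all genes were. The count of 4 was 2 without WT unstimulated and 8 without WT or knock-in LPS 8 h. At 8 h 14 were called lower, against 14.8% of all genes, and 0 higher. The 14 were Myc, all 3 box C/D genes, Dkc1 and Gar1, the nucleolar genes other than Ddx21, Heatr1, Utp20, Rrp12 and Rrp1b. Heatr1, a small subunit processome factor, had the largest TNF fall (log2 -1.001, SE 0.25, adjusted p = 0.00876), with 57.8 and 30.7 CPM at 8 h against 93.0 and 82.1 CPM unstimulated. Proliferation markers moved with this fall too: 15 of 15 were called lower at 8 h of TNF (median -1.08), and their summed level went from 2193 to 1060 CPM in WT and from 2044 to 899 CPM in knock-in cells. Their part in the result was not tested. The median over the 38 members was -0.29 at 8 h of TNF, or 81.8% of the unstimulated level, and the count of 14 became 8 without knock-in unstimulated or knock-in TNF 8 h. Between 1 and 3 h of TNF the same 4 genes named for 3 h fell (2.94% of all genes). These calls are fragile. That of Nop56 held without WT or knock-in LPS 3 h or LPS 8 h and was lost without any other library (log2 -0.684 to -0.47). Those of Nolc1, Dkc1 and Rrp1b were lost without some of the TNF 1 h and TNF 3 h libraries. Between 3 and 8 h Ncl, Npm1 and Rrp12 fell (7% of all genes), a count of 1 without knock-in TNF 3 h or TNF 8 h and of 6 without either LPS 8 h library. Over the 4 TNF times 12 members were called with their largest change downward (13.6% of all genes), or 6 without knock-in TNF 8 h.

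The members followed in detail above showed smaller steps after TNF. Polr1b had 22.4, 23.6, 18.9 and 19.8 CPM in WT and 19.9, 18.6, 10.8 and 15.4 CPM in knock-in cells over the 4 TNF times, and was not called. Nolc1 had 94.5, 93.1, 68.7 and 57.8 CPM in WT and 84.8, 86.3, 52.5 and 44.2 CPM in knock-in cells, with the 3 and 8 h libraries below both unstimulated ones. Nop56 had 35.6, 37.0, 22.3 and 22.1 CPM in WT and 33.1, 31.1, 23.3 and 22.2 CPM in knock-in cells. It shared this shape with Dkc1 and Rrp1b, each lower in all 4 libraries of 3 and 8 h than in either unstimulated library. Dkc1 had 21.2, 23.4, 14.7 and 13.5 CPM in WT and 18.01, 17.8, 11.3 and 10.3 CPM in knock-in cells. Rrp1b had 18.5, 20.1, 10.1 and 10.98 CPM in WT and 20.4, 15.8, 9.79 and 10.1 CPM in knock-in cells. Utp20, Tsr1 and Wdr12 changed later or not at all by the test. Utp20 had 82.0, 75.9, 64.2 and 53.3 CPM in WT and 73.7, 71.9, 69.6 and 37.2 CPM in knock-in cells. Tsr1 had 36.5, 43.4, 31.5 and 32.6 CPM in WT and 38.7, 36.6, 31.7 and 25.5 CPM in knock-in cells, and its 8 h value of -0.46 missed the threshold (adjusted p = 0.0503). Wdr12 had 29.6, 25.2, 24.3 and 28.6 CPM in WT and 25.8, 20.2, 19.6 and 19.4 CPM in knock-in cells.

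LPS and TNF were then compared at matched times, in libraries that share no sample. At 0.5 h 0 of 38 members differed by any of the 3 tools (0.0442% of all genes in edgeR). An unadjusted p under 0.05 was reached there by 1 member and by 274 of the 11308 genes. At 1 h Myc alone was called, higher after LPS (0.92% of all genes). At 3 h 8 members were lower after LPS and 2 higher, against 14.4% and 16.9% of all genes. Those higher were Wdr43 (1.26, SE 0.12, adjusted p = 4.23e-06) and Noc4l (1.16, SE 0.14, adjusted p = 1.94e-05). The lower ones were Myc, Polr1a, Polr1b, Gnl3 (-1.36, adjusted p = 0.000162), Rrp1b, Wdr12, Tsr1 and Utp15, and 5 remained in the count without knock-in LPS 3 h. At 8 h 32 members were lower after LPS and 1, Wdr43, higher, against 28.4% and 30% of all genes, with a median difference of -1.46. In the same comparison 12 of 15 proliferation markers were lower after LPS and 2 higher (median -1.94), and 6 of 6 stromal markers were higher (median 1.31). Stromal markers summed to 321 CPM after LPS against 172 CPM after TNF in WT, and to 112.5 against 24.9 CPM in the knock-in. The part of both lists in the result was not tested. Polr1b (-4.21, SE 0.40, adjusted p = 1.15e-06), Tsr1 (-2.85) and Utp20 (-2.83) had the largest differences. Ncl (-0.37, adjusted p = 0.000945) and Npm1 (-0.30, adjusted p = 0.0231) had small ones, the call for Npm1 being lost without WT TNF 8 h (-0.11, adjusted p = 0.377). Myc, Polr1a, Fbl, Noc4l and Ddx10 were not called. The higher value of Wdr43 at 8 h (0.35, adjusted p = 0.0293) missed the threshold without WT LPS 8 h, knock-in TNF 3 h or knock-in TNF 8 h (0.17 to 0.30, adjusted p from 0.0524 to 0.348) and turned to -0.35 with library totals. The doses of the stimuli differ and are not matched in potency.

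**Figure D4:**
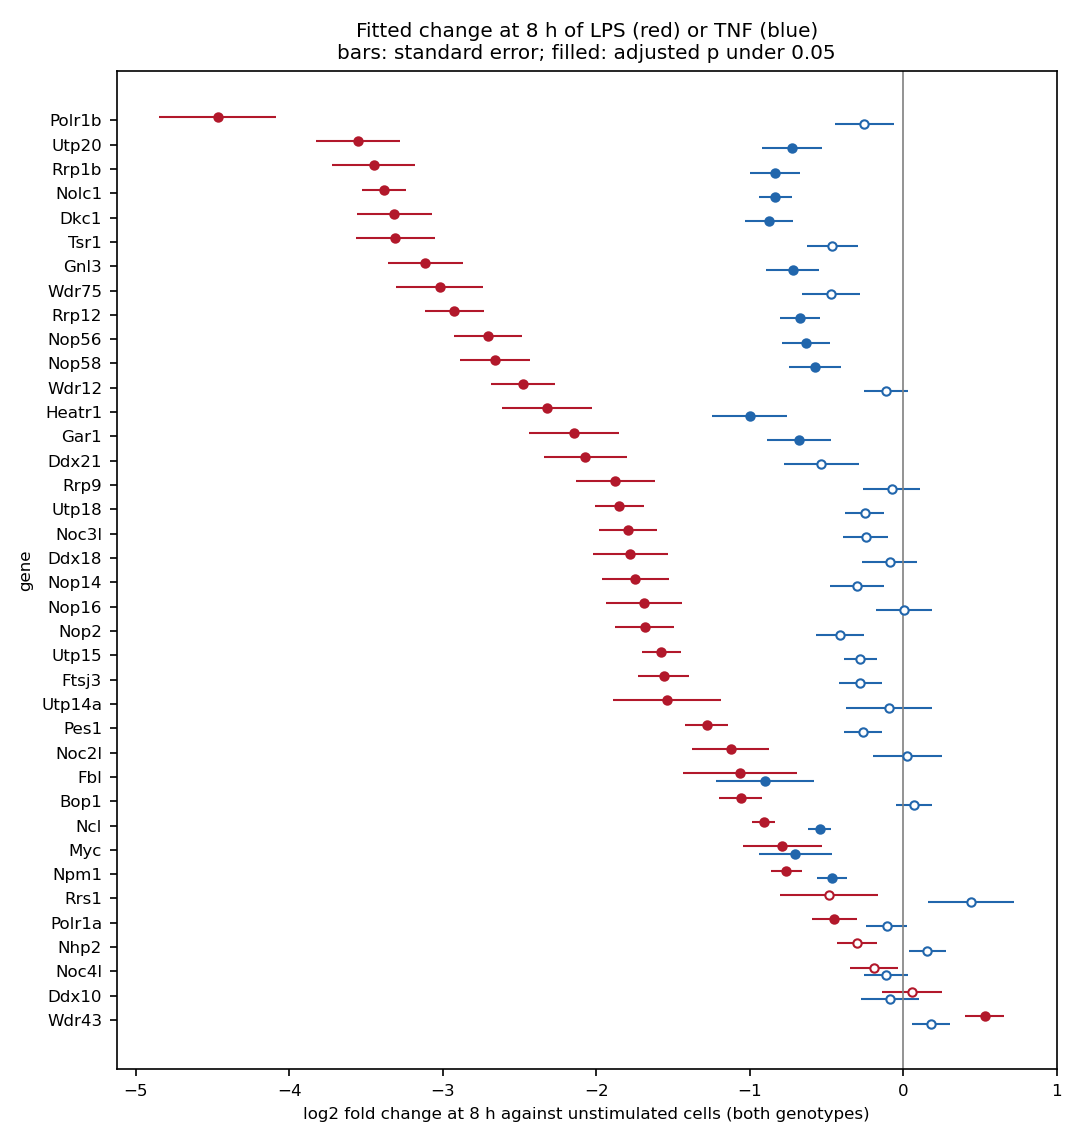
Fitted log2 fold change at 8 h against unstimulated cells, both genotypes together (x axis), for each of the 38 members (y axis, ordered by the LPS value), with LPS in red and TNF in blue; bars are 1 standard error and filled points have an adjusted p under 0.05 (edgeR). LPS values reach -4.47 for Polr1b and are filled for 34 genes, while TNF values lie between -1.001 and 0.44.

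The knock-in was compared with WT over the 9 pairs. Of the 38 members 9 were called lower in the knock-in and 0 higher, where 9.46% of all genes were called lower, and the median difference was -0.16 against -0.01 over all genes. Apart from Myc and Rrp9, the fitted difference was below 0 for every member. The largest was Rrs1 (log2 -0.46, SE 0.13, adjusted p = 0.0288, lower in 8 of 9 pairs), a call lost without WT or knock-in LPS 0.5 h, LPS 1 h, LPS 3 h or TNF 1 h (-0.47 to -0.38, adjusted p from 0.0508 to 0.0687). Wdr12 (-0.34, SE 0.07, adjusted p = 0.00544), Nhp2 (-0.32, SE 0.06, adjusted p = 0.00164) and Nolc1 (-0.30, SE 0.05, adjusted p = 0.00129) were lower in 9 of 9 pairs and Noc3l (-0.28, SE 0.07, adjusted p = 0.0144) in 8. Utp15 (-0.27), Npm1 (-0.19) and Ncl (-0.11), lower in 9 of 9 pairs, and Dkc1 (-0.26), lower in 8, made up the rest. The calls of Dkc1 and Ncl are the weakest of these: that of Dkc1 was lost with DESeq2 (adjusted p = 0.057) and without any of 12 libraries (both genotypes' unstimulated, LPS 1 h and all TNF libraries, adjusted p from 0.0529 to 0.0741). That of Ncl held without WT or knock-in LPS 8 h or WT TNF 3 h and was lost without any of the other 15 (adjusted p from 0.0557 to 0.101).

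Nhp2, a box H/ACA protein, illustrates a difference of constant direction but uneven size, with log2 ratios (CPM + 0.1) from -0.584 at TNF 1 h to -0.06 at TNF 8 h. Its WT levels were 50.3 CPM unstimulated, 50.3, 56.1, 59.9 and 38.8 CPM after LPS and 49.7, 56.8, 60.03 and 49.3 CPM after TNF. In knock-in cells they were 36.9 CPM unstimulated, 38.5, 50.5, 43.9 and 31.9 CPM after LPS and 44.3, 37.9, 46.7 and 47.3 CPM after TNF. The knock-in value was the lower one in each pair, and Nhp2 itself was not called at 8 h of LPS (log2 -0.30, SE 0.13, adjusted p = 0.0557). Noc3l, a large subunit transport factor, had 33.6 CPM unstimulated, 28.8, 31.3, 34.9 and 11.9 CPM after LPS and 25.5, 31.9, 29.9 and 29.2 CPM after TNF in WT. Its knock-in levels were 27.6 CPM unstimulated, 25.6, 26.02, 29.1 and 5.91 CPM after LPS and 26.5, 26.4, 21.7 and 22.6 CPM after TNF, so the order turned in the TNF 0.5 h pair.

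With library totals 17 members were called lower in the knock-in, against 1823 of the 11308 genes. The median of all genes then moved to -0.08 and the share of calls that were higher from 52.1% to 27.9%. Markers of other cell types differed between the genotypes in the same libraries. Summed neutrophil markers ran from 183 to 481 CPM in WT and from 95.0 to 302 CPM in knock-in cells, with 7 of 9 called lower. Stromal markers (Col1a1, Fn1 and others) ran from 172 to 321 CPM in WT and from 24.9 to 125 CPM in knock-in cells, with 6 of 6 called lower. Of all genes 9.46% were called lower in the knock-in over the 9 pairs. The neutrophil list also moved with the stimulus, so its range is not a measure of cell content alone. At 1 h of LPS 4 of its 9 genes were called higher (4.25% of all genes), and the WT sum went from 183 to 366 CPM. Dendritic cell markers were at most 30.7 CPM in WT and 29.8 CPM in knock-in cells, with 3 of 5 called lower (9.46% of all genes). The part of these in the result was not tested, and genotype and culture cannot be told apart.

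Split by stimulus, 3 members were lower in the knock-in after LPS (4.52% of all genes): Rrs1 (-0.87, SE 0.14, adjusted p = 0.00291), Nolc1 (-0.36, adjusted p = 0.0275) and Utp15 (-0.35, adjusted p = 0.0268). The count was 1 without the WT or knock-in library of LPS 1 h or LPS 3 h. After TNF 0 members were called by edgeR, DESeq2 or limma-voom (5.32% of all genes in edgeR), with 9 at an unadjusted p under 0.05. Among them Myc was higher by 0.51 (SE 0.14, adjusted p = 0.0596) after TNF, against -0.05 after LPS. The difference of the genotype effect between LPS and TNF was called by edgeR for 0 of 38 members and 0% of all genes, with 2 members at an unadjusted p under 0.05, Rrs1 (-0.66) and Myc (-0.55), both with an adjusted p of 0.905. DESeq2 and limma-voom also called 0 members. For late (3 and 8 h) against early (0.5 and 1 h) effects it was 0 of 38 in all 3 tools, against 0.398% of all genes in edgeR, with 3 members at an unadjusted p under 0.05. The counts of 9, 2 and 3 members at an unadjusted p stand without the share of all genes at that limit, so nothing is read from them.

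Single pairs have no test, and their ratios are given as descriptions. In the LPS 8 h pair the knock-in value was the lower one for 36 of the 37 members other than Myc, with a median log2 ratio (CPM + 0.1) of -1.005, where the median over all genes was 0.00 and that over the 3834 genes called lower at 8 h of LPS was -0.16. Polr1a was the exception. In that pair the knock-in value was also the lower one for 49.5% of all genes tested and for 62.8% of those 3834 genes. The TNF 8 h pair came next (33 of 37, median -0.35), where it was the lower one for 52.2% of all genes and 60.7% of the 3834. The other 7 pairs had medians from -0.16 to -0.01. Taken against unstimulated cells of their own genotype, the 37 genes stood at a median of 36.4% in WT and 19.8% in knock-in cells after 8 h of LPS, the knock-in being the lower for 33, and at 84.5% and 72.3% after 8 h of TNF, where it was the lower for 30. At 3 h of LPS the medians were 82.5% and 81.7%. The share of all genes by this measure was not computed, so nothing is read from the counts of 33 and 30. In the LPS 8 h libraries 3 of the 38 members had under 10 counts in WT and 9 in knock-in cells.

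**Figure D5:**
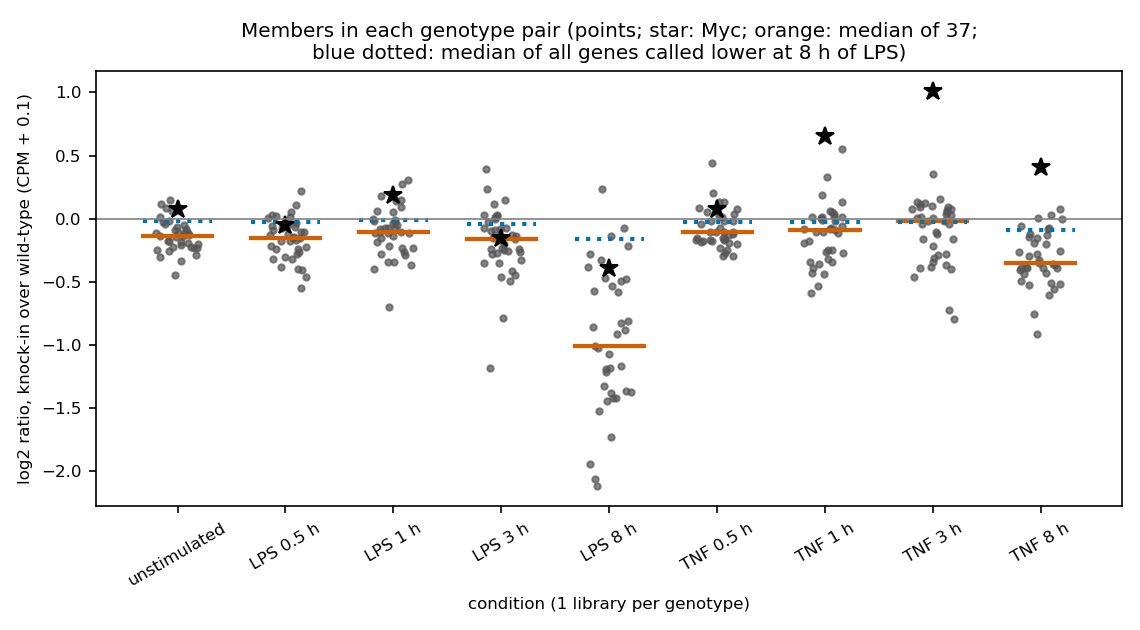
Log2 ratio of knock-in over wild-type (CPM + 0.1, y axis) in each of the 9 pairs (x axis), with grey points for the 37 members other than Myc, a star for Myc, an orange bar for the members' median and a dotted blue bar for the median of all 3834 genes called lower at 8 h of LPS. The orange bar is at -1.005 in the LPS 8 h pair and between -0.35 and -0.01 in the others.

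Transcripts of the MYC and MXD network moved in both directions. Mxd1, which encodes a MAX partner that opposes MYC, went from 25.1 to 90.6, 171, 462 and 994 CPM over the LPS times in WT and from 28.5 to 54.7, 138, 894 and 2566 CPM in knock-in cells. All 8 LPS libraries were above the unstimulated pair, with a fitted change of 6.01 at 8 h (SE 0.68, adjusted p = 2.46e-05). Over the 9 pairs the genotype difference of Mxd1 was not called by edgeR (0.24, adjusted p = 0.594). Its late minus early genotype effect was called (1.59, SE 0.20, adjusted p = 0.0107, 0.398% of all genes). Mycl, a MYC family gene, had 1 count in WT and 0 in knock-in unstimulated cells and reached 47.7 CPM in WT and 8.24 CPM in knock-in cells at 3 h of LPS. After LPS Mycl was called lower in the knock-in by edgeR (log2 -1.98, SE 0.36, adjusted p = 0.00588, 4.52% of all genes). Mxd3, another MXD gene, was down to 1 count over both libraries at 8 h of LPS from 44 unstimulated, or 4.79% (95% exact interval for counting error 0.119% to 28.1%). Of 10 tested genes of this network other than Myc, 5 were called higher and 5 lower at 8 h of LPS, against 33.8% and 33.9% of all genes.

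The lists of other ribosome biogenesis genes, outside the 38, also moved down at 8 h of LPS. At 8 h of LPS 71 of 106 were called lower and 14 higher, with a median of -1.01. Of all genes 33.9% were called lower and 33.8% higher then, shares that also stand beside each list that follows. By list, 8 of 13 other polymerase I genes were lower and 3 higher (median -0.62), among them Cd3eap (-2.95), a subunit of the polymerase, Polr1e (-1.43) and Taf1d (-1.35). Of 11 other snoRNP and assembly genes 6 were lower and 0 higher by edgeR, with Shq1 (-2.82) and Znhit6 (-2.53), snoRNP assembly factors, and the ATPase Ruvbl2 (-1.65). An unadjusted p under 0.05 was reached by 7 of these 11 and by 7936 of the 11308 genes. Of 38 other small subunit genes 25 were lower and 7 higher (median -0.97), including Imp3 (-2.91), the rRNA acetyltransferase Nat10 (-2.48) and Utp4 (-2.26). Of 44 other large subunit genes 32 were lower and 4 higher (median -1.31), including Rrp15 (-3.78), Ppan (-2.94) and Nle1 (-2.93). At 8 h of TNF 14 of the 106 were called lower and 2 higher (median -0.18), a share called lower that is near the 14.8% of all genes. Over the 9 genotype pairs 16 were called lower in the knock-in, where 9.46% of all genes were, and 0 higher (median -0.13).

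Textbook MYC targets with other functions were counted in the same way. At 8 h of LPS 21 of 30 were called lower and 3 higher (median -1.28), against 33.9% and 33.8% of all genes. At 8 h of TNF 17 of 30 were called lower, against 14.8% of all genes, and 0 higher (median -0.42). The lists were not tested against each other. Srm, the spermidine synthase, had 40.7 CPM in WT and 40.2 CPM in knock-in unstimulated cells and 5.17 and 3.25 CPM at 8 h of LPS (log2 -3.27, SE 0.21, adjusted p = 9.88e-09). Shmt1, an enzyme of one-carbon metabolism, changed by -3.27 (adjusted p = 2.14e-06). Ccnd2, a D-type cyclin, went the other way, from 37.4 and 24.2 CPM to 334 and 571 CPM (log2 4.06, SE 0.53, adjusted p = 6.16e-05).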

How the data were processed

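The table held raw read counts per gene, one column per library, which the authors deposited for 45706 genes. Per the submitters' processing notes the tools were cutadapt 1.12, STAR, featureCounts 1.5.0 and DESeq2, and the build was mm10. The libraries were stranded single-end poly(A) libraries of 50 bases, per the labels' protocols. No source used here names the strand setting or the annotation release. All 18 columns were matched to samples by name.

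From these counts edgeR 4.0.16 (R 4.3.3) gave TMM factors and a robust quasi-likelihood fit over the 11308 genes that filterByExpr kept at thresholds of 10 counts and 15 in total. The main model had condition and genotype as additive terms (8 residual degrees of freedom), so each condition's 2 libraries of different genotype stood in for replicates. Genotype effects by stimulus or phase were fitted with 6 residual degrees of freedom. P-values were adjusted by Benjamini-Hochberg over all genes tested, at 0.05. Standard errors were taken from the fold change and its F statistic and are approximate. Intervals for low counts are exact and cover counting error only. The scripts were tested on simulated data.

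All libraries were used, and no library was imputed. Alternatives were DESeq2 1.42.0, limma-voom (limma 3.58.1), library totals, DESeq2's size factors, 2 other filters (none, or 1 CPM in 9 libraries) and leaving out each library. Levels in all libraries are given for Myc, for the members of each role with the largest response (1, or 2 in roles with 10 or more members) and for the 5 with the largest genotype effect among those called. Of each related list the 3 genes with the largest LPS response among those called are named. Wdr43, Noc4l, Ddx10, Ncl and Npm1 were added after their values were seen. The members, lists and tests were chosen with earlier results of these data known.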

Additional observations from a re-analysis of the deposited data

Results flagged for a closer look

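Among the members, 3 differences between LPS and TNF met a joint rule. Each passed edgeR's test. Both LPS libraries lay on one side of unstimulated cells of their genotype, and both TNF libraries on the other. The test alone called LPS higher than TNF for 0.92% of all genes at 1 h and 16.9% at 3 h, and lower for 28.4% at 8 h. The share of all genes meeting the whole rule was not computed, so nothing is read from the count of 3. Of the single responses, Wdr43 at 3 h of LPS and Bop1 at 8 h of LPS passed the test. Those of Myc at 1 h (0.61 after LPS, adjusted p = 0.162, and -0.89 after TNF, adjusted p = 0.165), of Wdr43 at 3 h of TNF (-0.21, adjusted p = 0.325) and of Bop1 at 8 h of TNF (0.07, adjusted p = 0.704) did not. For Myc at 1 h the log2 difference of LPS minus TNF was 1.5 (SE 0.24, adjusted p = 0.00781). For Wdr43 at 3 h it was 1.258 (SE 0.12, adjusted p = 4.23e-06). For Bop1, of the PeBoW complex, at 8 h it was -1.128 (SE 0.14, adjusted p = 1.58e-05). The call for Myc was lost without WT LPS 1 h, WT TNF 1 h or knock-in LPS 1 h (adjusted p from 0.053 to 0.169).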

How the results depend on the processing

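The genotype test is already paired by condition, which is a term of the model. Every group holds 1 library with the replicate number 1, so a replicate block would add no further pairing. Counts of members called gave 254 values within 1.5 times the reported one and 22 outside it over the alternatives, and 756 and 72 on leaving out single libraries. The count called lower at 8 h of LPS stayed between 31 and 34 on leaving out any library, and that over the 9 genotype pairs between 6 and 10. With library totals the counts called lower were 32 at LPS 3 h, 9 at TNF 3 h, 25 at TNF 8 h, 23 for LPS minus TNF at 3 h, 32 for LPS 3 h minus 1 h, 5 for TNF 8 h minus 3 h (5 also with limma-voom), 17 over the 9 genotype pairs, 19 over the 4 TNF times and 1 for the knock-in after TNF. Of the 11308 genes, 6646, 1266, 3510, 5544, 5295, 1400, 1823, 2853 and 434 were called lower under that scaling, in the same order. The counts called higher were then 0 at LPS 1 h, LPS 8 h, TNF 3 h and LPS minus TNF 8 h, and 1 over the 4 LPS times. Of the 11308 genes, 369, 1737, 591, 1439 and 1973 were called higher there, in the same order. Wdr43 turned from higher to lower with library totals, to -0.42 at LPS 8 h and -0.351 for LPS minus TNF at 8 h. This scaling removes the factor that centres the typical gene. With no filter on low counts the counts called higher were 0 at LPS 0.5 h, LPS 1 h, TNF 3 h and LPS minus TNF 8 h and 1 for the knock-in after TNF, and DESeq2 and limma-voom each gave 2 at LPS 1 h. The cause was not tested. On leaving out 1 library, the counts called higher ran from 0 to 1 at LPS 0.5 h, 0 to 2 at LPS 1 h, 1 to 2 at LPS 8 h, 0 to 1 at TNF 3 h, 0 to 1 for LPS minus TNF at 1 h, 0 to 2 at 8 h, 0 to 1 for TNF 8 h minus 3 h, 0 to 1 over the 4 TNF times and 0 to 1 for the knock-in after TNF. Those called lower ran from 0 to 1 at TNF 1 h, 2 to 8 at TNF 3 h, 8 to 20 at TNF 8 h, 5 to 11 for LPS minus TNF at 3 h, 10 to 22 for LPS 3 h minus 1 h, 1 to 6 for TNF 3 h minus 1 h, 1 to 6 for TNF 8 h minus 3 h, 6 to 17 over the 4 TNF times, 1 to 3 for the knock-in after LPS and 0 to 3 after TNF. Depth limits the low genes: Polr1b rests on 5 and 1 counts at 8 h of LPS. Its change there ran from -5.97 to -3.81 over single libraries left out, and the cause was not tested.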
